A study of Arabidopsis thaliana with 4 samples.

Results

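WRKY genes encode a large plant family of transcription factors, and the responses of 45 *A. thaliana* WRKY loci to the volatile organic compounds of *Erwinia amylovora* (mVOCs) are described here. The loci were chosen by name, as array rows that are not controls and whose locus name is one of 45 listed WRKY loci. No measured value entered this rule, but the list was made with earlier results of these data known. All 45 were on the array, by 64 of its 43603 probes and among 29030 loci. The study compared whole Col0 seedlings, 7 days old, grown alone (control) or exposed for 16 h to mVOCs of *E. amylovora*, a bacterial phytopathogen grown in the same dish without contact. Roots and shoots were pooled, and each of 4 biological replicates put 1 control sample (Cy3) and 1 mVOC-exposed sample (Cy5) on 1 two-colour array. The free-text description of every sample speaks instead of untreated embryonic stem cells. It goes against the organism, source, organ, cultivar and growth protocol in the same labels, against the methods and against the plant array, and the samples were taken as seedlings.

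WRKY proteins carry a DNA-binding domain named after its conserved amino acids and bind the W-box, a short element common in the promoters of defence genes. They are sorted into group I, with a pair of such domains, group II, with one and divided into IIa to IIe, and group III, whose zinc finger differs. Many are induced by pathogens or salicylate and form a web in which members activate or repress each other. Others act in the abscisic acid (ABA) and jasmonate responses, leaf senescence, phosphate supply and development. No sequences are shown, since the files used here hold none for these genes.

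In all arrays, the median spot intensity lay between 344.5 and 413 units in Cy3 and between 394 and 460 in Cy5, over a local background of 52.5 to 56 units, and 0 spots were saturated. Replicates 1 and 2 shared slide 1 and replicates 3 and 4 shared slide 2. Log2 ratios of 2 arrays correlated across loci with r between 0.451 and 0.738. The dyes were never exchanged, so that a dye effect on a probe and an effect of exposure cannot be told apart. All 6 leaf photosynthesis genes and all 9 root genes taken as markers were well above background in both samples of every array. By at least 1 probe, all 45 WRKY loci were also well above background in all 8 samples, so that none of their values below is a bound set by the background.

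With all 4 arrays and the reported processing, exposure to mVOCs moved WRKY transcripts by little, and more of them downwards than upwards. Each value is a log2 ratio of mVOC-exposed over control, the mean of the probes of a locus after background correction and loess normalization, and it is tested against 0 with limma and Benjamini-Hochberg adjustment over all loci. With an adjusted p below 0.05, 4 WRKY loci rose and 9 fell, whereas 32 did not pass the test. The called share, 28.9%, stands beside a background of 22.7% of the 29013 loci tested, dim ones included. Of all loci, 11.7% were called higher and 10.9% lower. With dim probes left out, 31.4% of 21776 loci were called, and 15 of the 45 WRKY loci (4 higher and 11 lower). Their log2 ratios ranged from -0.27 to 0.33, and 0 of them reached a fold change of 2. The median of the 45 was -0.018, against 0.0013 for all loci. On 4 of 4 arrays the same sign was found for 22 WRKY loci (48.9%, against 41.2% of all loci, dim ones included), among them all 13 called loci. The split between higher and lower depends on how the dyes are balanced. With median centring in place of loess, 13 WRKY loci were called higher and 6 lower, beside 53.2% of all loci called. The 13 loci called with loess kept their direction, but *WRKY25*, *WRKY46* and *WRKY65* lost their calls. *WRKY65* was then at -0.038 (adjusted p = 0.505).

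The number of calls depends on other settings as well. Spots marked for an uneven background were left out here. With these kept, 4 WRKY loci were called higher and 5 lower, beside 17.3% of all loci, and *WRKY35*, *WRKY44*, *WRKY46* and *WRKY75* were no longer called. All 13 loci had the same sign on 4 arrays, so that both slides had to show the direction reported. Of the 13, 6 passed the test on slide 1 alone and 10 on slide 2 alone, where 10.8% and 25.2% of all loci were called. The log2 ratios of the rising loci were 0.11 to 0.31 on slide 1 and 0.13 to 0.39 on slide 2, and those of the falling loci -0.26 to -0.096 and -0.37 to -0.11.

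**Figure D1:**
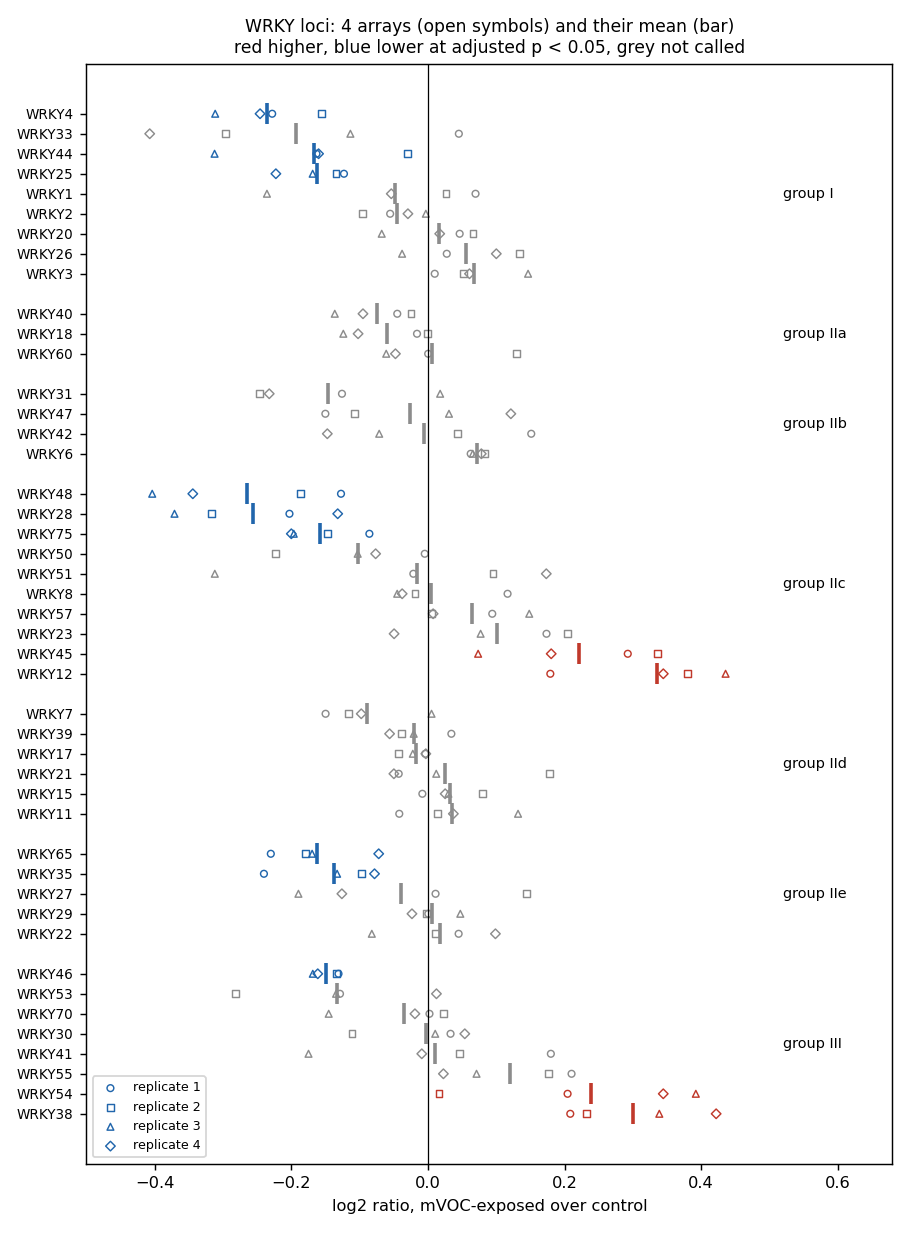
Log2 ratio of mVOC-exposed over control (x axis) for each of the 45 WRKY loci, arranged by WRKY group, with 1 open symbol per array and a bar for the mean of 4 arrays; red marks higher, blue lower and grey not called at an adjusted p of 0.05. The 4 red loci lie in groups IIc and III, and the blue ones in groups I, IIc, IIe and III.

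*WRKY12* (AT2G44745), a regulator of pith cell walls that keeps secondary thickening in check, rose most. Its log2 ratios were 0.18, 0.38, 0.44 and 0.34 on arrays 1 to 4, with a mean of 0.33 ± 0.11 (SD, n = 4, adjusted p = 0.000948), a 1.26-fold rise. The size depends on the offset of the background correction. Without the offset, its log2 ratio was 0.49 (adjusted p = 0.0423). Its normalized log2 intensity lay between 7.04 and 7.30 in the controls and between 7.45 and 7.51 in the mVOC-exposed samples, so that the groups did not overlap.

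*WRKY38* (AT5G22570), induced by salicylate and known to restrain basal defence, had log2 ratios of 0.21, 0.23, 0.34 and 0.42 on arrays 1 to 4. The mean was 0.30 ± 0.099 (SD, n = 4, adjusted p = 0.00133), with both of its probes above 0 on every array. Intensities of 8.30 to 8.49 in the controls and of 8.61 to 8.83 after exposure did not overlap.

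*WRKY54* (AT2G40750), a close relative of *WRKY70* that holds back salicylate synthesis and senescence, gave log2 ratios of 0.20, 0.016, 0.39 and 0.34. All 4 arrays were above 0, but replicate 2 was close to it. The mean was 0.24 ± 0.17 (SD, n = 4, adjusted p = 0.0141). Without replicate 4 its call was lost, with a log2 ratio of 0.20 (adjusted p = 0.0896), and without replicate 3 it was 0.19 (adjusted p = 0.0546). On slide 1 the log2 ratio was 0.11 (adjusted p = 0.260) and on slide 2 it was 0.37.

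*WRKY45* (AT3G01970), which activates the phosphate transporter gene *PHT1;1*, had log2 ratios of 0.29, 0.34, 0.073 and 0.18. The mean was 0.22 ± 0.12 (SD, n = 4, adjusted p = 0.00902), and the intensities of the groups overlapped. The rise was larger on slide 1 (0.31) than on slide 2 (0.13), where it did not pass the test (adjusted p = 0.107).

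Among the loci that fell, *WRKY48* (AT5G49520) and *WRKY28* (AT4G18170) fell most, and both encode substrates of calcium-dependent protein kinases. *WRKY48*, a pathogen-induced activator that lowers basal resistance, had log2 ratios of -0.13, -0.19, -0.40 and -0.34, lower in replicates 3 and 4, on slide 2, than in replicates 1 and 2, whose slide alone did not pass the test (adjusted p = 0.0843). Its mean was -0.27 ± 0.13 (SD, n = 4, adjusted p = 0.00448), and its groups did not overlap. *WRKY28*, known to bind the promoter of the salicylate synthesis gene *ICS1*, had log2 ratios of -0.20, -0.32, -0.37 and -0.13. Its mean was -0.26 ± 0.11 (SD, n = 4, adjusted p = 0.00375), and both of its probes passed the test on their own (adjusted p = 0.000636 and 0.0109), although the second of them was at 0.00078 on array 4. Without the offset, *WRKY48* was at -0.36 (adjusted p = 0.0644) and *WRKY28* at -0.37 (adjusted p = 0.0524), larger falls that did not pass the test.

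In group I, *WRKY4* (AT1G13960), which acts with *WRKY3* against necrotrophic fungi, had log2 ratios of -0.23, -0.16, -0.31 and -0.25. The mean was -0.24 ± 0.064 (SD, n = 4, adjusted p = 0.00283), while *WRKY3* was at 0.067 ± 0.057 (SD, n = 4, adjusted p = 0.263). *WRKY25* (AT2G30250), a partner of the MAP kinase substrate MKS1 and a factor of heat and salt tolerance, gave -0.12, -0.13, -0.17 and -0.22. Its mean was -0.16 ± 0.045 (SD, n = 4, adjusted p = 0.0142). *WRKY44* (AT2G37260), known as *TTG2* for its part in trichomes and seed coats, gave -0.16, -0.030, -0.31 and -0.16. Its mean was -0.17 ± 0.12 (SD, n = 4, adjusted p = 0.0309), with replicate 2 close to 0, and the call was lost without replicate 1, 3 or 4 (adjusted p of 0.122 at most). These 3 were the called members of the 9 in group I, and 0 of the 9 rose.

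*WRKY46* (AT2G46400), which acts with *WRKY53* and *WRKY70* in basal resistance, had log2 ratios of -0.13, -0.13, -0.17 and -0.16, within a narrow band. The mean was -0.15 ± 0.019 (SD, n = 4, adjusted p = 0.0179), with both probes passing the test. Without replicate 1, 3 or 4 its adjusted p was above 0.05, reaching 0.0859, although its log2 ratio stayed between -0.15 and -0.14. *WRKY75* (AT5G13080), a factor of phosphate starvation, root hairs and senescence, gave -0.086, -0.15, -0.20 and -0.20. The mean was -0.16 ± 0.053 (SD, n = 4, adjusted p = 0.0178), the call being lost without replicate 3 or 4 (adjusted p of 0.0985 at most). Of the probes of *WRKY75*, one passed the test (-0.21, adjusted p = 0.00518) and the other did not (-0.11, adjusted p = 0.129), lying above 0 on array 1. In group IIe, *WRKY65* (AT1G29280) fell by 0.16 on the log2 scale (SD 0.066, n = 4, adjusted p = 0.0175), from -0.23, -0.18, -0.17 and -0.072 on arrays 1 to 4. *WRKY35* (AT2G34830) fell by 0.14 (SD 0.072, n = 4, adjusted p = 0.0384), from -0.24, -0.098, -0.13 and -0.078. *WRKY65* lost its call without replicate 1 (adjusted p = 0.0833), and *WRKY35* did so without any one of the replicates (adjusted p from 0.0501 to 0.180). One probe of *WRKY35* passed (-0.18, adjusted p = 0.0110), while the other did not (-0.099, adjusted p = 0.220) and was above 0 on array 4. *WRKY25* lost it without replicate 4 (adjusted p = 0.0905).

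**Figure D2:**
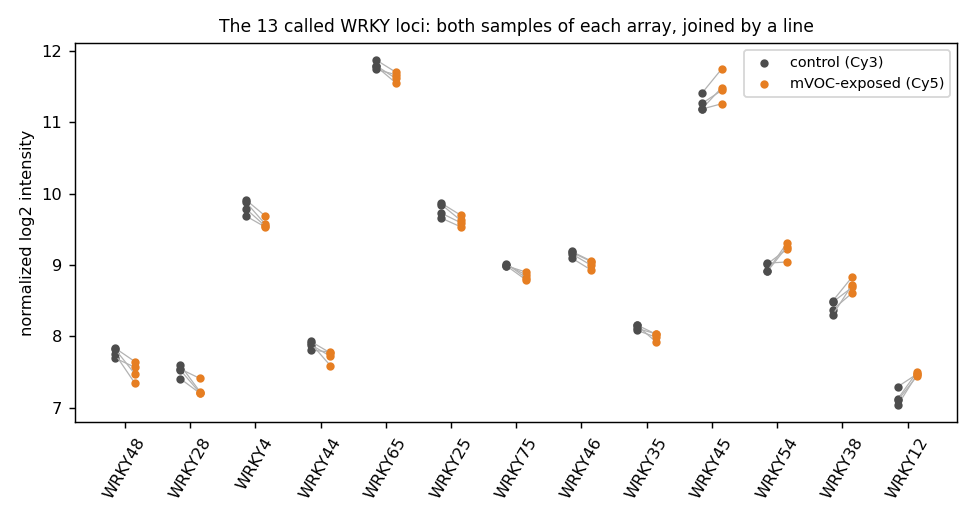
Normalized log2 intensity (y axis) of the control and mVOC-exposed sample of each array for the 13 called WRKY loci, with lines joining the samples of 1 array; heights of different loci come from different probes and are not to be compared. The intensities of 3 of the rising loci lie wholly above their controls and those of 7 of the falling loci wholly below, whereas *WRKY45*, *WRKY25* and *WRKY28* overlap.

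In these intensities, 10 of the 45 loci had groups that did not overlap, 3 above and 7 below the controls, beside 16.7% of all loci, dim ones included. By WRKY group, the calls were 2 higher and 3 lower of 10 in group IIc, 2 higher and 1 lower of 8 in group III, 3 lower of 9 in group I and 2 lower of 5 in group IIe. Of the 3 loci of group IIa, the 4 of group IIb and the 6 of group IId, 0 passed the limma test after adjustment, and at an unadjusted p below 0.05 only *WRKY31* of group IIb did, at -0.15 (adjusted p = 0.0549). Group IId, whose proteins bind calmodulin, stayed within -0.090 and 0.035. Beside the 22.7% of all loci that were called, groups this small are described only.

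The best known members of the hormone network gave small values. *WRKY70* (AT3G56400), a node between the salicylate and jasmonate responses, had log2 ratios of 0.0022, 0.022, -0.15 and -0.019 and a mean of -0.035 ± 0.076 (SD, n = 4, adjusted p = 0.598). *WRKY33* (AT2G38470), a MAP kinase substrate required for camalexin synthesis, had the widest scatter among these. Its values of 0.045, -0.30, -0.11 and -0.41 gave a mean of -0.19 ± 0.20 (SD, n = 4, adjusted p = 0.053), just outside the threshold. Without replicate 1 it was -0.27 (adjusted p = 0.0126), and its only probe passed where the adjustment ran over probes instead of loci (adjusted p = 0.0362). *WRKY18* (AT4G31800) and *WRKY40* (AT1G80840), whose proteins form complexes with *WRKY60* in defence and ABA responses, were below 0 on all 4 arrays. *WRKY18* gave -0.016, -0.00017, -0.12 and -0.10, with a mean of -0.061 ± 0.062 (SD, n = 4, adjusted p = 0.320). *WRKY40* gave -0.045, -0.025, -0.14 and -0.095, with a mean of -0.075 ± 0.050 (n = 4, adjusted p = 0.204), and *WRKY60* was at 0.0053 (adjusted p = 0.948). The 32 loci that did not pass the test lay between *WRKY33* at -0.19 and *WRKY55*, a neighbour of *WRKY54* in group III, at 0.12 (adjusted p = 0.0743).

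Grouped by known role, with some loci in several lists, the 13 salicylate loci held 2 that rose (*WRKY38* and *WRKY54*) and 3 that fell (*WRKY28*, *WRKY46* and *WRKY75*), with a median of -0.061. Of the 7 jasmonate loci and the 7 ABA loci, 0 passed the limma test after adjustment, and their medians were -0.018 and 0.0053. At an unadjusted p below 0.05 these were *WRKY33* and *WRKY50*, a jasmonate and salicylate locus at -0.10 (adjusted p = 0.128), and 0 of the ABA loci. A single probe of *WRKY50* passed on its own (-0.17, adjusted p = 0.0212). *WRKY57*, listed under both jasmonate and ABA, was at 0.064 (adjusted p = 0.304), and *WRKY51*, under jasmonate, at -0.016 (adjusted p = 0.891). In the list of 8 loci that act in pattern-triggered signalling or are targets of its kinases, 4 fell (*WRKY25*, *WRKY28*, *WRKY46* and *WRKY48*), 0 rose and the median was -0.16. This list includes *WRKY22* and *WRKY29*, which act below the flagellin receptor and had log2 ratios of 0.018 (adjusted p = 0.799) and 0.0057 (adjusted p = 0.936). Of 9 senescence loci 2 rose and 1 fell, of 4 phosphate loci 1 rose and 1 fell, of 4 heat loci 1 fell and of 4 developmental loci 1 rose and 1 fell. Among the 13 loci placed in none of these lists, 3 fell (*WRKY4*, *WRKY35* and *WRKY65*), and 0 rose. Set against the background of 22.7%, these lists are small and are described only.

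Within related pairs, the phosphate factors differed in direction. The log2 ratio of *WRKY45* exceeded that of *WRKY75* by 0.38, 0.48, 0.27 and 0.38 on arrays 1 to 4, with a mean difference of 0.38 ± 0.087 (SD, n = 4). In an exact two-sided permutation of signs p was 0.125, the smallest that 4 arrays can give, and 0.5 after adjustment over 8 pairs, which were picked with the values in view. *WRKY54* exceeded *WRKY70* on 3 of 4 arrays, by 0.27 ± 0.23 (SD, n = 4, exact permutation p = 0.25), and 0 of the 8 pairs passed the threshold, which 4 arrays cannot reach. *WRKY28* and *WRKY48* differed by 0.0098 ± 0.15 (SD, n = 4, exact permutation p = 0.875), and *WRKY18* and *WRKY40* by 0.015 ± 0.016 (SD, n = 4, exact permutation p = 0.25).

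Of the 45 loci, 27 had 1 probe, 17 had 2 and 1 had 3. For 7 of the 18 loci with several probes the mean log2 ratios differed in sign between probes. *WRKY53* (AT4G23810), a regulator of leaf senescence, showed the widest gap. One of its probes had log2 ratios of -0.33, -0.41, -0.47 and -0.26 and a mean of -0.37 ± 0.093 (SD, n = 4, adjusted p = 0.000119 over all probes). The other gave 0.071, -0.15, 0.20 and 0.28 with a mean of 0.10 ± 0.19 (SD, n = 4, adjusted p = 0.256), and the locus mean of -0.13 ± 0.12 (SD, n = 4) did not pass the test (adjusted p = 0.0749). For *WRKY6* (AT1G62300), a senescence factor that represses the phosphate exporter gene *PHO1*, one probe rose by 0.14, 0.20, 0.20 and 0.22 (mean 0.19, adjusted p = 0.00708). The other was at -0.016, -0.036, -0.068 and -0.064 (mean -0.046, adjusted p = 0.505). The locus mean of *WRKY6*, 0.072 ± 0.0096 (SD, n = 4, adjusted p = 0.198), therefore describes neither probe. The probes of *WRKY17*, at -0.12 and 0.088, and of *WRKY39*, at -0.12 and 0.083, also lay on either side of 0, without passing the test. Those of *WRKY11*, *WRKY15* and *WRKY30* differed in sign by less. Which transcripts each probe detects was not tested.

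**Figure D3:**
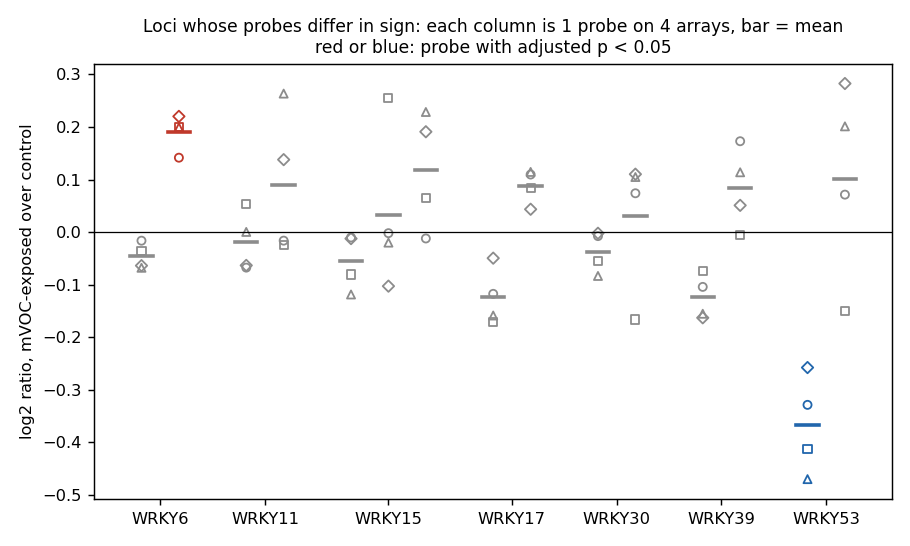
Log2 ratio of mVOC-exposed over control (y axis) for every probe of the 7 WRKY loci whose probes differ in sign, with 1 open symbol per array and a bar for the mean. A probe of *WRKY53* lies below 0 on 4 arrays (mean -0.37) and a probe of *WRKY6* above 0 on 4 arrays (mean 0.19), while their partner probes do not pass the test.

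The remaining WRKY genes of the RefSeq annotation, 27 loci outside the list, gave 2 higher and 3 lower calls. Their median was 0.010, with a range from -0.19 to 0.23. Of all loci tested, 22.7% were called, which is also the background for the partners, targets and markers below. Among 9 partners of WRKY proteins, *SIB2*, which encodes a plastid and nuclear activator of *WRKY33*, rose (log2 ratio 0.19 ± 0.089, SD, n = 4, adjusted p = 0.0126). *MPK6*, a MAP kinase that phosphorylates *WRKY33*, fell by 0.17 on the log2 scale (SD 0.031, n = 4, adjusted p = 0.0111). The remaining 7 partners, *NPR1*, *MPK3*, *MPK4* and *MKS1* among them, did not pass the test.

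Among 10 genes that WRKY proteins are known to control, 2 rose, 3 fell and 5 did not pass the test. *FRK1*, a receptor kinase gene induced by flagellin through *WRKY22* and *WRKY29*, had log2 ratios of -0.64, -0.60, -0.58 and -0.42 and a mean of -0.56 ± 0.094 (SD, n = 4, adjusted p = 2.76e-05). *PHT1;1*, a target of *WRKY45* and *WRKY42*, fell by 0.40 on the log2 scale (SD 0.14, n = 4, adjusted p = 0.000695), whereas *WRKY45* rose. *ICS1*, a target of *WRKY28*, fell by 0.17 (SD 0.098, n = 4, adjusted p = 0.0216). The salicylate marker *PR1* rose by 0.71 ± 0.10 (SD, n = 4, adjusted p = 5.61e-06), and the ABA-related repressor gene *RAV1*, a target of *WRKY6*, by 0.16 ± 0.090 (SD, n = 4, adjusted p = 0.0249). *PAD3*, the last step of camalexin synthesis and a target of *WRKY33*, was at 0.029 (adjusted p = 0.724) over 3 arrays, its spot on replicate 2 having been left out. *ABI4* and *SAG12* were not well above background in either group.

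Markers of the organs moved with exposure as well. Of 6 leaf photosynthesis genes 2 rose and 3 fell (log2 ratios from -0.34 to 0.47), of 9 root genes 2 fell (from -0.60 to 0.13), and of 8 seed genes 1 rose and 5 fell (from -1.13 to 0.28), *CRU3*, a seed storage protein gene, the most. Of the seed genes 4 of 8 were well above background in all 8 samples. The 2 root genes that fell were *EXPA7* and *RHD6*, which act in root hairs. The remaining root genes, *COBL9* among them, did not pass the test, and *COBL9* differed in sign between arrays. After a longer exposure, the paper reports more root hairs, and whether root hair genes as a set changed here was not tested. In whole seedlings, fewer cells of a type and less RNA per cell cannot be told apart, and the part of these markers in the WRKY values was not tested.

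**Figure D4:**
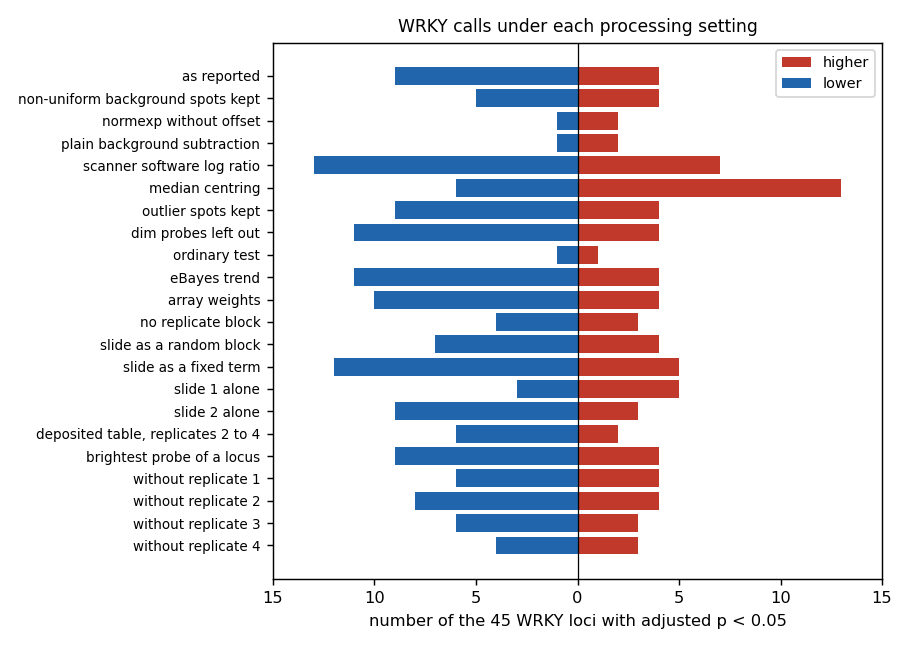
Number of the 45 WRKY loci called higher (red, to the right) and lower (blue, to the left) at an adjusted p of 0.05 (x axis) under the reported processing and each alternative (y axis). The reported setting calls 4 higher and 9 lower, median centring 13 and 6, and the ordinary test 1 and 1. Of all loci, these settings call 22.7%, 53.2% and 2.07%.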

How the data were processed

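Whole seedlings were measured on 4 two-colour arrays (Cy3 control, Cy5 mVOC-exposed), grouped and numbered by the titles. The authors deposited Agilent Feature Extraction 11.5.1.1 output with median spot and background intensity, unnormalized, and a log10 ratio of Cy5 over Cy3. They also deposited a series table. Its columns of replicates 2 to 4 equal that log10 ratio for 100% of spots, while the column of replicate 1 holds the error of the ratio and was not used.

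In R 4.3.3 with limma 3.58.1, spots that the scanner software marks for an uneven background were removed first, a choice made with its effect known, because on replicate 4 they widened the fitted background SD in Cy3 from 0.974 to 423. Normexp (offset 50), loess, removal of control and outlier spots and averages over probes and loci followed, with lmFit and eBayes over 29013 loci, at a threshold of 0.05. In simulated data with 200 of 29030 loci changed by 1 on the log2 scale, 98% were recovered, with a median fitted change of 0.87, since the offset draws dim spots towards 0. Recovery of smaller changes, such as the WRKY log2 ratios of -0.27 to 0.33, was not tested. Members, lists and settings were chosen with earlier results of these data known. Genes shown by array are those past the threshold with 1 sign on 4 arrays, 7 well-known regulators (*WRKY18*, *WRKY33*, *WRKY40*, *WRKY46*, *WRKY53*, *WRKY54* and *WRKY70*) and loci whose probes differ in sign. The array pairs its samples: deviations of samples on 1 array correlated with r of 0.524 to 0.636, those on different arrays with r of -0.349 to -0.0165. All 45 locus names matched RefSeq TAIR10.1 symbols. No coordinates are given, since the builds differ.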

Additional observations from a re-analysis of the deposited data

Results flagged for a closer look

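*WRKY8* (AT5G46350), a pathogen-response factor of group IIc, had a log2 ratio of 0.12 in replicate 1, while replicates 2 to 4 gave values from -0.045 to -0.019. Its mean was 0.0037 (adjusted p = 0.963). Such a gap is met by chance in about 1 of 20 groups of 4, and 45 loci were examined.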

How the results depend on the processing

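The 13 called loci kept their direction under all 21 alternatives computed by locus, but the number of calls changed. Many of these alternatives could not have changed the direction. All 13 loci had 1 sign on 4 arrays, which 1 slide alone or a replicate left out had to keep. Other tests of the same mean keep it as well. Calls higher and lower, 4 and 9 as reported, were 4 and 5 with the marked background spots kept, 2 and 1 without the offset, 2 and 1 with plain background subtraction, 7 and 13 with the scanner software's ratio, and 13 and 6 with median centring. An ordinary test gave 1 and 1 (12 loci with an unadjusted p below 0.05), slide 1 alone gave 5 and 3, slide 2 alone 3 and 9, and 2 and 6 came from the deposited table. With no replicate block, so that the paired samples of an array were treated as unpaired, they were 3 and 4. With each probe tested singly, 5 loci had at least 1 probe called higher and 12 at least 1 called lower. Leaving out each replicate in turn gave 3 to 4 higher and 4 to 8 lower, with 4 lower without replicate 4. Of all loci, 10.8% (without replicate 4) to 21.2% (without replicate 2) were then called. The median log2 ratio of the WRKY loci, -0.018, was 0.032 with median centring and -0.053 with the deposited table, and it ranged from -0.039 to 0.0018 with a replicate left out. The cause of these shifts was not tested. *WRKY12* and *WRKY38* lost their calls only under the ordinary test (adjusted p of 0.0860 for each), and *WRKY4* under that test as well (adjusted p = 0.0725). Of the 13 reported calls, the ordinary test kept only that of *WRKY46* (adjusted p = 0.0440). *WRKY6*, the other locus called under that test (log2 ratio 0.072, adjusted p = 0.0454), is not among the 13. *WRKY33* passed the threshold in 8 of 21 alternatives. The number of arrays limits the precision.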
